A study of Mus musculus with 18 samples.

Results

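Nuclear receptors are transcription factors that read small lipid-soluble ligands, such as fatty acids, oxysterols, bile acids, retinoids, thyroid hormone and glucocorticoids, and switch genes on or off in answer. Most bind DNA through a short recognition site and recruit coactivators or corepressors, and many act only as a pair with a retinoid X receptor (RXR). In the liver they set the programs of fatty acid oxidation, lipid synthesis, bile acid production, drug metabolism and glucose output. The 38 genes described here were taken from the table of 55487 genes by their symbols, and all 38 had a row. By role they comprise 10 metabolite sensors that pair with RXR, 6 retinoid receptors and RXR partners, 5 thyroid and steroid hormone receptors, 3 clock receptors, 10 orphan and constitutive receptors, 3 immediate early receptors and 1 receptor without a DNA-binding domain, Nr0b2.

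RNA of whole liver was sequenced from 18 male C57BL/6J mice, 6 in each of 3 groups, with 1 library per mouse. All of the mice had received an adeno-associated virus of serotype AAV8 1 week before the diet, with a TBG promoter that limits the transgene to hepatocytes. CON-GFP mice carried the GFP virus and ate a purified control diet for 16 weeks, FPC-GFP mice carried the same virus and ate a diet rich in fructose, palmitate and cholesterol (FPC) with sugar in the drinking water, and FPC-LIPA mice ate the FPC diet and carried the virus for human LIPA, which encodes lysosomal acid lipase (LAL). Livers were taken after a short fast, and the time of day is not given in the sources used here. The deposited values are raw read counts per gene, and levels are given here as CPM, the counts a gene would have in a library of 1000000 counts, after scaling of the libraries by the trimmed mean of M values (TMM).

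Total counts lay between 16632146 and 37739301 per library. The 84 cytosolic ribosomal protein genes took 1.75 to 2.54% of the counts in CON-GFP livers and 1.44 to 1.80% in FPC-GFP livers. In FPC-LIPA livers the share was 2.95, 2.42 and 2.16% for mice 31, 33 and 34, and 6.48, 8.09 and 8.15% for mice 36, 37 and 39, so that these 3 libraries stand apart. The human transgene has no row in the table, and the mouse Lipa row cannot check the labels (340 ± 61.4 CPM in FPC-GFP and 293 ± 51.2 CPM in FPC-LIPA, SD, n = 6 each). Alb, the serum albumin gene that marks hepatocytes, lay at 58675 ± 9673 CPM in CON-GFP, 52691 ± 8263 CPM in FPC-GFP and 43086 ± 9007 CPM in FPC-LIPA.

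The start sites of 5 receptor genes that fell in 1 of the comparisons are shown first. RefSeq sequences for GRCm38.p6 were found for 35 of the 38 genes, with 51 start sites in all. Each sequence below lies within the 250 bases before a start, on the strand of the gene, without any exon annotated in GENCODE M21. Nr1i2 (the pregnane X receptor, PXR), Nr1i3 (the constitutive androstane receptor, CAR) and Nr1h4 (the bile acid receptor FXR) were lower in FPC-GFP than in CON-GFP livers. Rxra, the main RXR gene of liver, and Hnf4a, a constitutive factor of hepatocyte identity, were lower in FPC-LIPA than in FPC-GFP livers. Capitals mark the nuclear receptor half-site AGGTCA, the E-box CACGTG, the GC box GGGCGG or the TATA box TATAAA, read on either strand. The windows lie at chr16:38294825-38295074 on the minus strand for Nr1i2, chr1:171213720-171213969 on the plus strand for Nr1i3, chr10:89506659-89506908 on the minus strand for Nr1h4, chr2:27676951-27677200 and chr2:27709042-27709291 on the plus strand for the first and second start of Rxra, and chr2:163546943-163547154 on the plus strand for the second start of Hnf4a. The windows of Nr1i2 and Nr1i3 lie directly upstream of the annotated gene, and the others lie within the span of their gene but in no exon.
Nr1i2: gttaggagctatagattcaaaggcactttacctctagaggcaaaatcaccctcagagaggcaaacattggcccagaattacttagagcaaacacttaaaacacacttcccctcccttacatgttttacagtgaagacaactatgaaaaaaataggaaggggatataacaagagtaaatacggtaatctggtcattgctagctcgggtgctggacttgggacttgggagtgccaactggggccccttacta
Nr1i3: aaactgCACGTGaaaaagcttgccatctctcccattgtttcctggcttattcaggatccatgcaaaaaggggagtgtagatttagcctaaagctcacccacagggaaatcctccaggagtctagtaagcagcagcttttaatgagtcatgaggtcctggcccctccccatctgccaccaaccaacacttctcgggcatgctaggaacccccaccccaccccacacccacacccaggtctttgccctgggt
Nr1h4: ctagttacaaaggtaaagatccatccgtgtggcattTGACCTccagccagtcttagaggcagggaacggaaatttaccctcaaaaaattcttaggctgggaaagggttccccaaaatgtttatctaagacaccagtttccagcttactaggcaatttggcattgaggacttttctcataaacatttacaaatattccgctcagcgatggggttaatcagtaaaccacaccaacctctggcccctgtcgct
Rxra, first start: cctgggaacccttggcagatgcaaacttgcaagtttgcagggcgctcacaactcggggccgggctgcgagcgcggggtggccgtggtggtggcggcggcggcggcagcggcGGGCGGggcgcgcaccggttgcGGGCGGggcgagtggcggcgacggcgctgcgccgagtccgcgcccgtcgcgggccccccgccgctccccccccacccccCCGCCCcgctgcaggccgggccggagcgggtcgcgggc
Rxra, second start: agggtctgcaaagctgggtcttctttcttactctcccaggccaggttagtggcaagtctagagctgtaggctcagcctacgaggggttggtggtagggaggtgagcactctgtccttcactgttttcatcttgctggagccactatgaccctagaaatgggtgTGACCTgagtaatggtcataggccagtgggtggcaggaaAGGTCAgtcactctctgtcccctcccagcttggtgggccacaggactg
Hnf4a: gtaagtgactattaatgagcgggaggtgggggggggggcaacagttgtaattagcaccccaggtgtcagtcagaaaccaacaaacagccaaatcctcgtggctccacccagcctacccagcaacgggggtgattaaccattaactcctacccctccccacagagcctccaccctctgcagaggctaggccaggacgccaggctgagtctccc

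Base composition separates these windows. The first start of Rxra has a GC content of 81.2% with 40 CpG pairs in 250 bases, while the windows of Nr1i2 (44.0%) and Nr1h4 (44.4%) are poor in GC and hold 2 and 5 CpG pairs. The median was 59.6% over the 51 windows of receptor genes and 52.4% over all 32851 windows. The first Rxra window holds 3 GC boxes, at 139, 117 and 38 bases before the start, and the second holds 2 half-sites, at 87 and 48 bases. Nr1h4 has 1 half-site 214 bases before its start, Nr1i3 has 1 E-box at 244 bases, and the printed windows of Nr1i2 and Hnf4a contain none of the 4 motifs. Over the whole family, 19.6% of windows hold the half-site (14.0% of all windows), 7.84% the E-box (6.02% of all), 47.1% the GC box (32.7% of all) and 9.80% the TATA box (12.4% of all). Some windows of the same gene overlap, as for Rara and Nr1h3, so a motif can be counted in more than 1 window. These are matches of letters only.

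Levels of different genes were compared as CPM per kb of exonic length. In CON-GFP livers Hnf4a (114 ± 30 CPM per kb, SD, n = 6) and Nr1i3 (111 ± 29.2) were the highest and did not differ beyond their spread. They were followed by Nr1h4 (76.4 ± 9.35), Rxra (61.3 ± 12.0), Nr1i2 (57 ± 14.0), the oxysterol receptor gene Nr1h3 or LXRα (53.1 ± 5.20), the corepressor gene Nr0b2 or SHP (44.6 ± 23.5) and the fatty acid receptor gene Ppara (22.1 ± 3.36). The neighbours from Rxra to Nr0b2 also overlap within their SD. The rank of Nr1i3, here and in FPC-LIPA livers, rests on an exonic length of which 74.9% overlaps Tomm40l on the opposite strand. The strand setting of the counts is not given in the sources used here. Among the RXR genes Rxra stood far above Rxrb (7.59 ± 1.79 CPM per kb) and Rxrg (3.72). At the other end, the vitamin D receptor gene Vdr had 0 to 3 raw counts per library and Hnf4g had 0 to 5, and the immediate early receptor gene Nr4a3 had 0 to 27. A count of 0 allows up to 3 counts, which corresponds to 0.0795 to 0.180 CPM at these depths and covers counting error only. In FPC-LIPA livers the order at the top was different, with Nr1i3 (69.0 ± 37.8 CPM per kb), Nr1h3 (56.7 ± 19.6), Hnf4a (50.6 ± 27.7) and Nr1h4 (47.5 ± 7.83) in front, and these 4 overlapped within their spread.

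**Figure D1:**
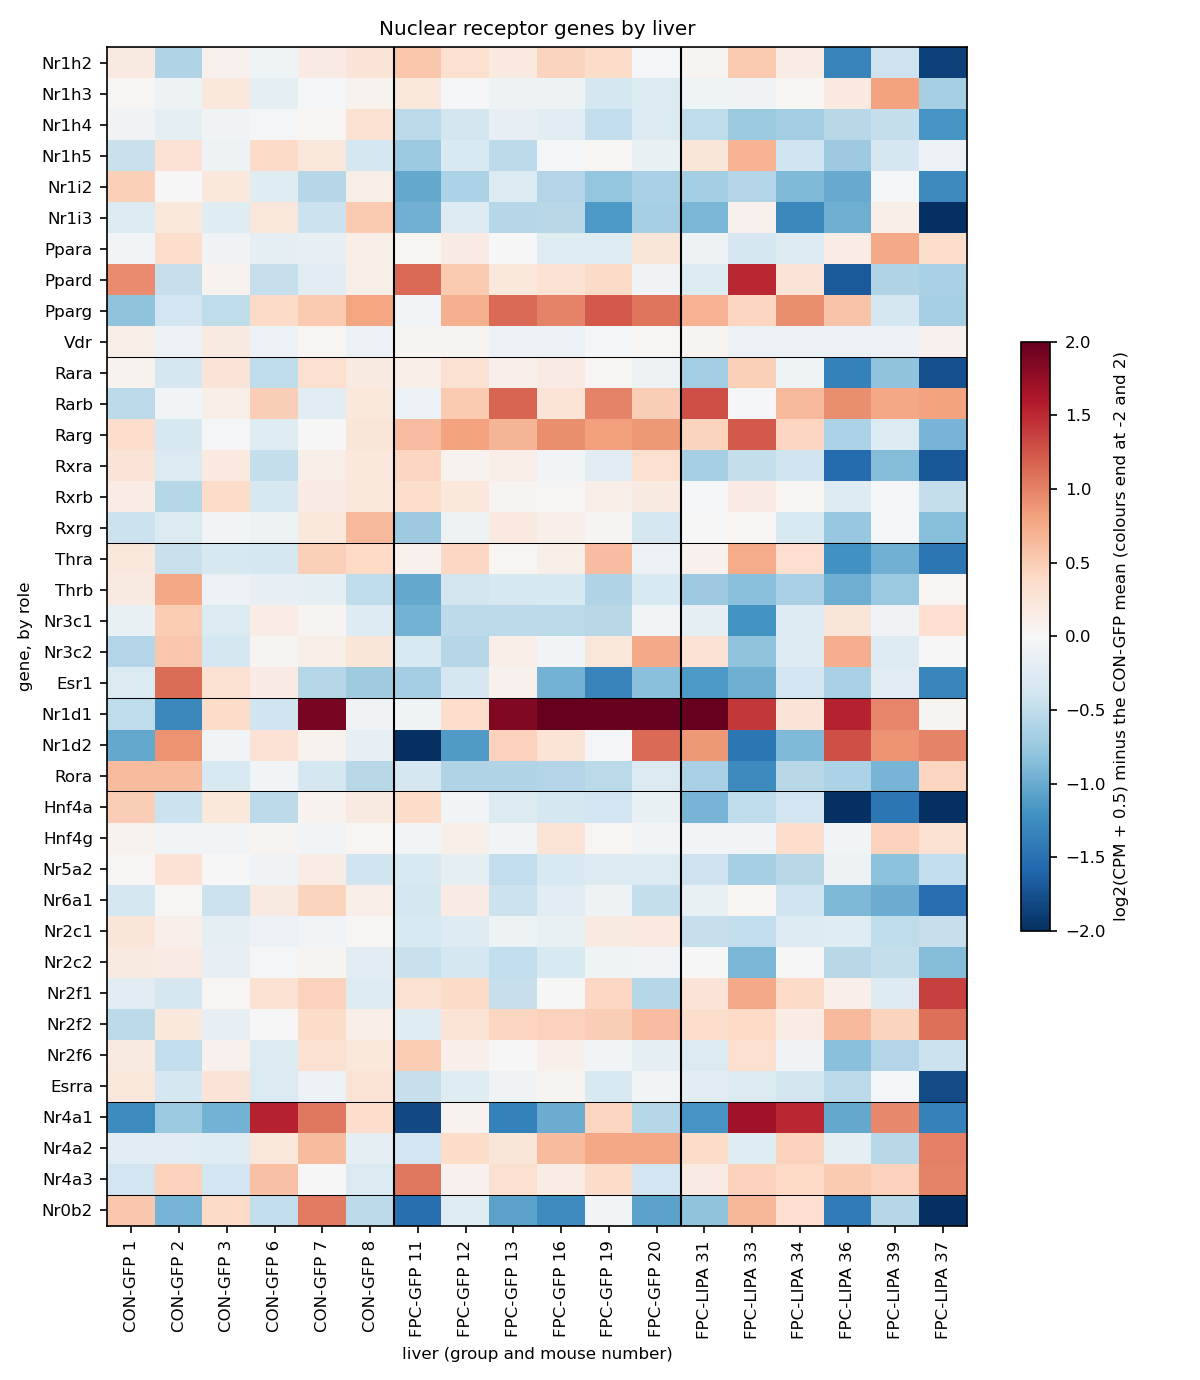
Each cell is the log2(CPM + 0.5) of a gene (rows, grouped by role) in a liver (columns, group and mouse number) minus the mean of the 6 CON-GFP livers, with colours ending at -2 and 2. Nr1d1 is high in FPC-GFP mice 13, 16, 19 and 20, and the column of FPC-LIPA 37 holds the lowest value of 14 of the 33 genes whose mean reached 1 CPM.

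The first comparison, FPC-GFP against CON-GFP, asks which receptor genes differ after the FPC diet. Of the 38 genes, 35 passed the filter on low counts (Vdr, Hnf4g and Nr4a3 did not), and 7 passed the test at an adjusted p under 0.05. Of these, 3 rose: Nr1d1 (3.59-fold), Rarg (1.78-fold) and Pparg (1.74-fold), against 12.9% of all 14307 genes tested that were called higher. The other 4 fell: Nr1i3 (to 0.615 of the CON-GFP level), Nr1i2 (0.626), Nr3c1 (0.694) and Nr1h4 (0.791), against 10.9% of all genes called lower. With 3 higher and 4 lower of 35, both counts lay near the shares of all genes. The median log2 fold change was -0.07 over the 35 receptor genes and 0.01 over all genes tested, and an unadjusted p under 0.05 was found for 15 of the receptor genes and for 5444 of all genes. With the 2-fold minimum of the study added to the test, 1 receptor gene was called higher (Nr1d1, background 4.76%) and 0 lower (background 2.44%). Calls rest on edgeR's quasi-likelihood test with Benjamini-Hochberg adjustment over all genes tested. In whole liver, fewer cells of a type and less RNA per cell cannot be told apart.

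The receptor genes for drugs and bile acids were among the 4 lower. Nr1i3 (chr1:171213970-171220701, plus strand), which induces drug-metabolizing enzymes of the Cyp2b family, had 353, 394, 402, 551, 561 and 687 CPM in CON-GFP livers and 216, 245, 301, 322, 323 and 401 CPM in FPC-GFP livers. All but 1 of the FPC-GFP values lay under the lowest CON-GFP value. The log2 fold change was -0.70 (SE 0.19, adjusted p = 0.0144). In the annotation, 74.9% of the exonic length of Nr1i3 overlaps Tomm40l on the opposite strand, and without a stated strand setting reads from both genes cannot be told apart. The Tomm40l row was at 12.8 ± 3.41 CPM in control livers and 16.5 ± 2.37 CPM after the diet (SD, n = 6). Nr1i2 (chr16:38248323-38294824, minus strand), which binds steroids and drugs, had 95.3, 120, 142, 153, 164 and 198 CPM in CON-GFP and 69.4, 82.3, 90.2, 90.7, 94.4 and 118 CPM in FPC-GFP livers. Only FPC-GFP 13, at 118 CPM, reached into the CON-GFP range. Its log2 fold change was -0.68 (SE 0.17, adjusted p = 0.0099). Nr1h4 (chr10:89454234-89533585, minus strand), which senses bile acids, had 153, 166, 167, 172, 180 and 216 CPM in CON-GFP and 121, 124, 135, 144, 150 and 157 CPM in FPC-GFP livers. The groups overlapped by 1 value on each side, and the log2 fold change was -0.34 (SE 0.11, adjusted p = 0.0354). Nr0b2, the gene that FXR induces to restrain bile acid synthesis, ranged from 23.3 to 92.7 CPM for CON-GFP and from 15.4 to 43.5 CPM for FPC-GFP livers and did not pass the test (log2 fold change -0.94, SE 0.33, adjusted p = 0.0505).

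Of the other metabolite sensors, Pparg alone passed the test. It lies at chr6:115360951-115490399 on the plus strand and encodes PPARγ, the fatty acid receptor known from adipocytes and from steatotic liver, and had 8.73, 10.8, 11.9, 20.6, 22.7 and 27.5 CPM in CON-GFP and 15.1, 25.9, 31.6, 33.4, 34.8 and 37.3 CPM in FPC-GFP livers. The groups overlapped, with FPC-GFP 11 and 12 inside the CON-GFP range, and the log2 fold change was 0.80 (SE 0.27, adjusted p = 0.0457). Its paralogs did not pass the test. Ppara, which drives fatty acid oxidation in fasting, lay at 84.9 ± 12.9 CPM for CON-GFP and 84.6 ± 11.7 CPM for FPC-GFP livers, a log2 difference of 0.0005 with an SE of 0.13. Ppard lay at 6.90 ± 3.14 and 9.07 ± 2.98 CPM (0.40, SE 0.26). The oxysterol receptor genes Nr1h3 (134 ± 13.1 and 125 ± 17.8 CPM) and Nr1h2 (32.4 ± 6.27 and 39.9 ± 5.49 CPM) and the FXR paralog Nr1h5 (3.23 ± 0.870 and 2.53 ± 0.599 CPM) did not pass the test either.

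Rarg was the only receptor gene whose CON-GFP and FPC-GFP livers did not overlap. It lies at chr15:102234938-102257517 on the minus strand, encodes retinoic acid receptor γ, and had 3.63, 3.89, 4.60, 4.64, 5.63 and 6.08 CPM in CON-GFP and 7.47, 7.80, 8.57, 8.59, 8.91 and 9.32 CPM in FPC-GFP livers. Every FPC-GFP value lay above every CON-GFP value, which held for 5.61% of all genes tested (4.82% lay without overlap on the lower side, with 0 receptor genes among them). The log2 fold change was 0.83 (SE 0.14, adjusted p = 0.0012). Its paralog Rarb, of which 34.1% of the exonic length overlaps Top2b, was at 2.53 ± 0.732 and 4.02 ± 1.45 CPM (0.67, SE 0.26, adjusted p = 0.0697) and Rara at 20.6 ± 4.59 and 21.8 ± 2.16 CPM (0.09, SE 0.14). For the RXR genes, the partners of these receptors, the log2 fold changes were 0.11 for Rxra (SE 0.15), 0.13 for Rxrb (SE 0.14) and -0.16 for Rxrg (SE 0.20), none past the test.

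**Figure D2:**
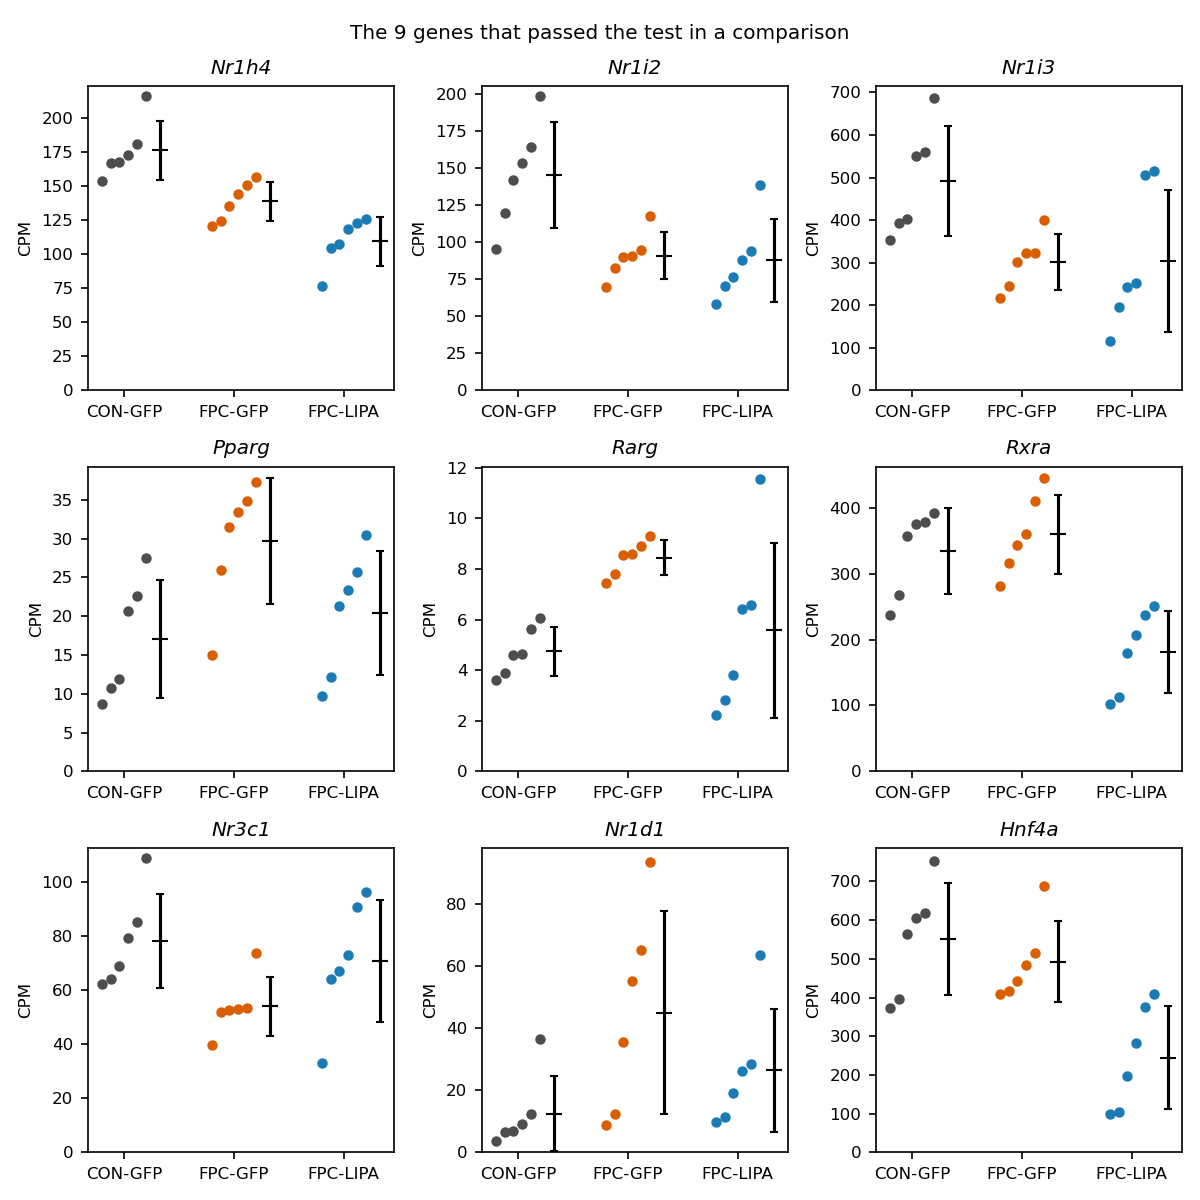
Points are the CPM of single livers (vertical axes from 0) for the 9 genes that passed the test in a comparison, with the mean and SD of the 6 livers beside each group. Rarg in FPC-GFP lies above all CON-GFP livers, and Rxra in FPC-LIPA lies below all FPC-GFP livers.

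Among hormone receptors, Nr3c1, the glucocorticoid receptor gene, had 62.2, 63.9, 69.0, 79.1, 85.0 and 109 CPM in CON-GFP and 39.7, 51.9, 52.6, 52.8, 53.2 and 73.5 CPM in FPC-GFP livers. Of the FPC-GFP livers only mouse 20, at 73.5 CPM, reached the CON-GFP range, and the log2 fold change was -0.53 (SE 0.17, adjusted p = 0.0325). Its paralog Nr3c2, the mineralocorticoid receptor gene, was at 9.63 ± 2.76 and 9.95 ± 3.49 CPM. The thyroid hormone receptor gene Thrb was at 40.6 ± 14.1 and 27.9 ± 4.94 CPM (adjusted p = 0.0626), with CON-GFP 2 the highest at 67.1 CPM, and Thra at 8.6 ± 2.57 and 9.71 ± 1.99 CPM. Esr1, the estrogen receptor gene, was at 18.4 ± 9.92 and 10.8 ± 4.04 CPM (adjusted p = 0.0852).

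The clock receptor gene Nr1d1 (chr11:98767932-98775333, minus strand) encodes REV-ERBα, a repressor whose transcript swings widely over the day in liver. It had 3.57, 6.46, 7.02, 9.01, 12.3 and 36.5 CPM in CON-GFP and 8.84, 12.2, 35.3, 55.2, 65.1 and 93.2 CPM in FPC-GFP livers. The spread inside each group was wide, with CON-GFP 7 far above the other 5 control livers and FPC-GFP 11, 12 and 13 inside the CON-GFP range. The log2 fold change was 1.85 (SE 0.59, adjusted p = 0.0335). The exons of Nr1d1 share 263 bases, 8.55% of its exonic length, with Thra on the opposite strand. Its paralog Nr1d2 did not pass the test (57 ± 24.1 and 56.8 ± 37.7 CPM, log2 fold change 0.0018, SE 0.43), and the opposing activator Rora was at 67.3 ± 25.4 and 45.3 ± 4.64 CPM (adjusted p = 0.0532). Of 15 core clock genes 0 passed the quasi-likelihood test of edgeR in either direction, and 6 had an unadjusted p under 0.05. Dbp, a clock output gene named after its values were seen, had 14.5 ± 8.15 and 55.7 ± 46.1 CPM (log2 fold change 1.94, SE 0.74, adjusted p = 0.0689), and Arntl, a target of REV-ERBα repression named in the same way, had 14.3 ± 5.38 and 9.11 ± 8.48 CPM (-0.64, SE 0.52). The part of collection time in these values was not tested.

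None of the 9 orphan and constitutive receptors tested passed. Hnf4a was at 552 ± 145 CPM for CON-GFP and 493 ± 104 CPM for FPC-GFP livers (log2 fold change -0.15, SE 0.18), and Nr5a2 (LRH-1), a partner of FXR in bile acid control, at 43.6 ± 6.85 and 34.8 ± 2.38 CPM (adjusted p = 0.0549). Nr2f6 was at 56.5 ± 11.5 and 59.3 ± 10.6 CPM, with 54.4% of its exonic length shared with Ocel1. Esrra (36.9 and 32.2 CPM), Nr2c2 (26.0 and 21.2 CPM, with 30.7% of its exonic length shared with Mrps25), Nr2f2 (18.0 and 22.8 CPM), Nr2c1 (12.3 and 11.7 CPM), Nr6a1 (9.17 and 7.63 CPM) and Nr2f1 (0.641 and 0.665 CPM) completed the group. Of the immediate early receptors, Nr4a1 ranged from 4.07 to 31.4 CPM for CON-GFP and from 2.65 to 14.2 CPM for FPC-GFP livers, and Nr4a2 was at 0.708 ± 0.335 and 1.11 ± 0.427 CPM, with neither past the test.

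The calls for Nr1i2, Nr1i3 and Rarg held in 21 of 22 alternatives each. These include each omission of 1 library but not the 2-fold minimum, under which none of these genes was called. Those of the other genes were less firm: Pparg lost its call without any 1 of CON-GFP 1, 2, 3 and 6 or FPC-GFP 12, 13, 16, 19 and 20 (adjusted p from 0.0559 to 0.0951), Nr1d1 without any 1 of CON-GFP 1, 2, 3, 6 and 8 or FPC-GFP 16, 19 and 20 (0.0561 to 0.0855), Nr1h4 without CON-GFP 6, 7 or 8 or FPC-GFP 11, 12 or 19 (0.0511 to 0.0832), and Nr3c1 without CON-GFP 2 or 6 or FPC-GFP 11, 12, 13, 16 or 19 (0.0585 to 0.0709). The count of 7 dropped to 4 when either FPC-GFP 16 or FPC-GFP 19 was omitted. Over all genes, 2944 were called without FPC-GFP 16 and 2466 without FPC-GFP 19, against 3410 with all libraries of the comparison. With library size alone as the scaling, which moved the median of all genes to 0.21, 6 receptor genes were higher and 2 lower, and the split was 3 to 7 with DESeq2 size factors, 2 to 8 after removal of length trends and 3 to 7 after removal of GC trends.

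Lists of genes known to answer to these receptors were counted beside them, to be read against the 12.9% of all genes tested that were called higher and the 10.9% called lower. Some genes are shared between lists, so the list counts are not independent. Dusp1 and Klf9 are also glucocorticoid targets, and Lrat is also a stellate cell marker. Tat is also a hepatocyte marker, and so are the HNF4A targets Serpina1a, Apob and Ttr. Cyp8b1 is in the bile acid and HNF4A lists, Cyp7a1 in the oxysterol and bile acid lists, and Aldh1a1 in the xenobiotic and retinoid lists. Of 23 targets of the fatty acid receptors (PPARs) 8 were higher and 1 lower (median log2 fold change 0.29), led by the peroxisomal thiolase gene Acaa1b (0.87, SE 0.20) and the lipid droplet coat gene Plin2 (0.99, SE 0.28), with the lipase inhibitor gene Angptl4 lower (-0.74, SE 0.20). Of 12 targets of the oxysterol receptors 5 were higher and 1 lower (median 0.54), led by the desaturase gene Scd1 (1.38, SE 0.42) and Srebf1 (1.49, SE 0.18), which controls fatty acid synthesis, with the transporter gene Abca8a lower (-0.76, SE 0.26). Their receptors Nr1h2 and Nr1h3 did not pass the test. Of 13 glucocorticoid receptor targets 6 were lower and 0 higher (median -0.85), led by Pck1 (-0.85, SE 0.26), the gluconeogenic carboxykinase gene, and Tat (-1.48, SE 0.35), a tyrosine-degrading enzyme gene. Xenobiotic receptor targets, whose receptor genes Nr1i2 and Nr1i3 were lower, had 3 higher and 0 lower of 17 (median 0.34), led by the glutathione transferase gene Gstm1 (1.93, SE 0.24) and the P450 gene Cyp2a4 (5.84, SE 0.85). The median of all genes tested was 0.01.

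Targets of the bile acid, thyroid hormone and retinoid receptors had genes past the test in both directions. Bile acid receptor targets, with counts near the shares of all genes, had 1 higher (Abcb4, a phospholipid exporter, 0.37, SE 0.13) and 2 lower of 11, led by the bile acid importer gene Slc10a1 (-0.68, SE 0.16) and Fetub (-0.53, SE 0.18). Thyroid hormone targets had 2 higher, Me1 (malic enzyme, 1.30, SE 0.19) and Hr (1.33, SE 0.41), and 1 lower, Klf9 (-0.85, SE 0.21), of 6. Retinoid genes had 1 higher, the retinoic acid hydroxylase gene Cyp26a1 (1.87, SE 0.45), and 3 lower of 10, among them the retinol carrier gene Rbp4 (-0.47, SE 0.13) and Rarres2 (-0.76, SE 0.16). HNF4A targets had 4 lower and 0 higher of 10, led by Apoc3 (-0.67, SE 0.18) and Serpina1a (-0.65, SE 0.15). Vitamin D genes had 0 past the test of 3, with 1 at an unadjusted p under 0.05. Immediate early genes had 6 higher and 1 lower of 13, led by Klf6 (0.94, SE 0.18) and Egr1 (1.14, SE 0.40), with Dusp1 lower (-0.96, SE 0.20). Of 20 coregulators 2 were lower, Med1 (-0.34, SE 0.11) and Ppargc1a (-1.17, SE 0.28), which encodes the coactivator PGC-1α. Among further nuclear receptor genes, Esrrg was lower (4.16 ± 1.68 to 1.35 ± 0.671 CPM, log2 fold change -1.61, SE 0.38).

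Markers of other cells moved with the diet. Kupffer cell markers were higher for 7 of 8 genes (summed level 262 to 432 CPM for CON-GFP and 447 to 635 CPM for FPC-GFP livers), led by Cd5l and Clec4f, monocyte and macrophage markers for 7 of 10 (67.3 to 126 and 155 to 423 CPM), led by Lyz2 and Csf1r, stellate cell markers for 4 of 10 (185 to 301 and 243 to 320 CPM), led by Col3a1 and Col1a1, and endothelial markers for 4 of 8 (170 to 272 and 262 to 321 CPM), led by Eng and Cdh5. Hepatocyte markers were lower for 3 of 9 genes tested, led by Serpina1a and Ass1, and their summed level ranged from 74965 to 108307 CPM for CON-GFP and from 64415 to 90990 CPM for FPC-GFP livers. Of the cholangiocyte (5 tested), lymphocyte (5), neutrophil (2) and adipocyte markers (1), 0 passed, and 1 lymphocyte marker had an unadjusted p under 0.05. No defining marker of these lists but 1 adipocyte marker in FPC-LIPA was at 0 in a whole group. The part of cell composition in the receptor levels was not tested.

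**Figure D3:**
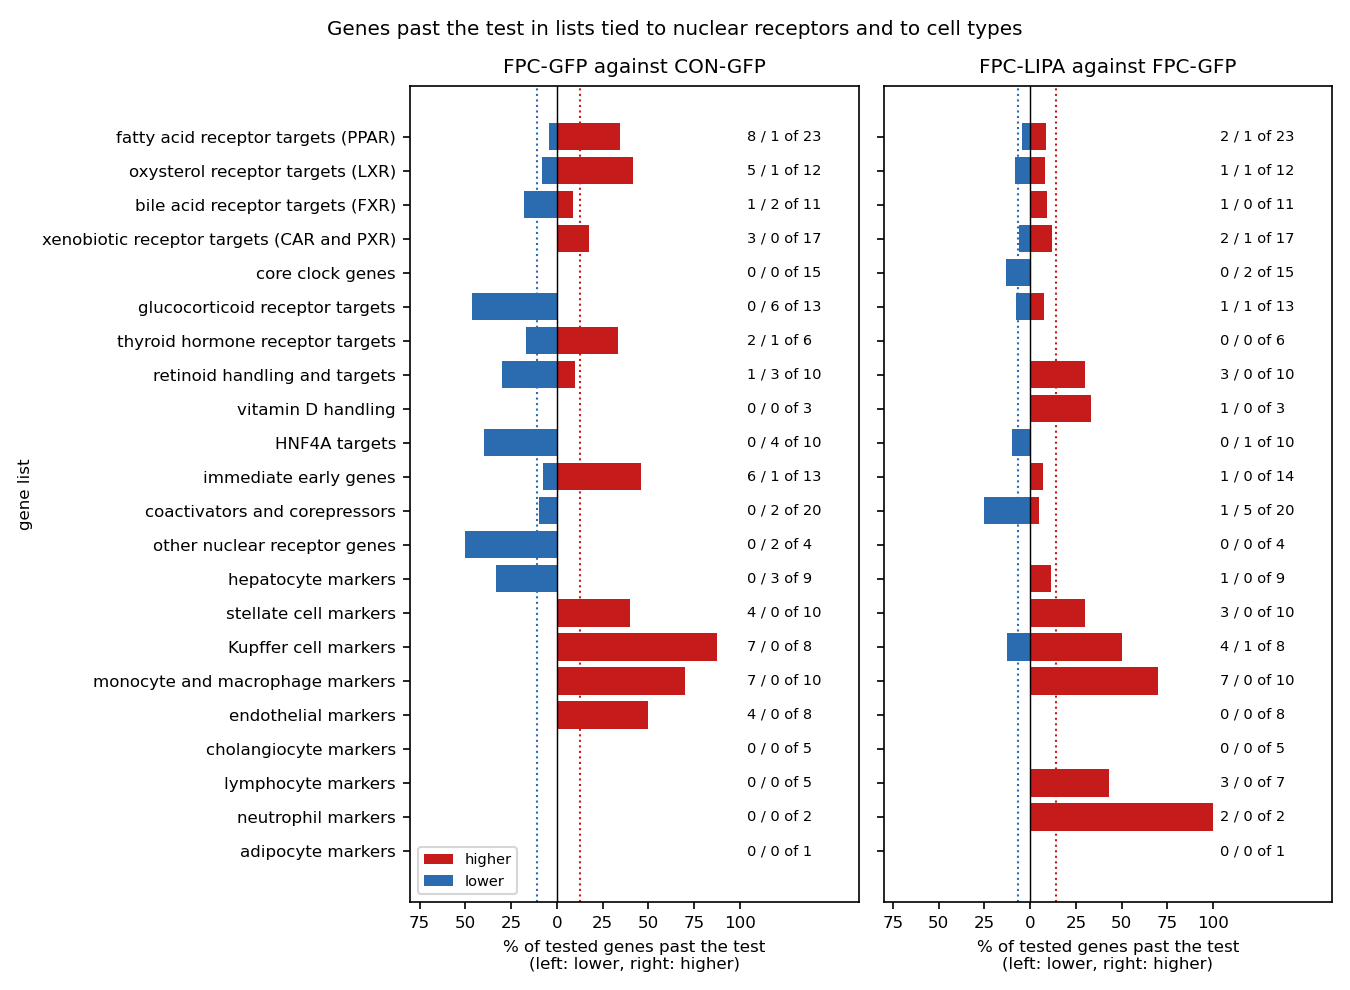
Bars are the percentage of tested genes of each list that passed the test (right, higher; left, lower), with the counts higher / lower of tested printed beside them and dotted lines at the shares for all genes tested. Glucocorticoid receptor targets reach 6 lower of 13 in the diet comparison, and coactivators and corepressors reach 5 lower of 20 in the LIPA comparison.

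The second comparison, FPC-LIPA against FPC-GFP, asks what the LIPA virus changed in mice on the FPC diet, and shares the FPC-GFP livers with the first. Of 36 receptor genes tested (Vdr and Hnf4g were filtered out), 2 fell, Rxra (to 0.518 of the FPC-GFP level) and Hnf4a (0.507), against 6.87% of all 14620 genes called lower. A count of 2 of 36 lies near that share. None rose, against 14.4% of all genes called higher. With the 2-fold minimum added, 0 were called in either direction (background 10.3% higher and 1.11% lower), and the unadjusted p was under 0.05 for 3 receptor genes and 5825 of all genes. The DESeq2 Wald test called the same count of 2 lower and 0 higher, where it called 4422 of all 14620 genes. The median log2 fold change was -0.11 over the receptor genes and 0.04 over all genes tested, with 22 of 36 and 6977 of 14620 below 0. With length trends removed the medians were -0.03 over the receptor genes and 0.03 over all genes tested.

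Rxra (chr2:27676440-27762957, plus strand), the common partner of most metabolite sensors, had 281, 316, 344, 361, 410 and 444 CPM in FPC-GFP livers. In FPC-LIPA livers it had 207, 237 and 250 CPM for mice 31, 33 and 34 and 113, 102 and 180 CPM for mice 36, 37 and 39. Every FPC-LIPA value lay below every FPC-GFP value, which held for 4.30% of all genes tested (3.36% were without overlap on the higher side, with 0 receptor genes among them), and among the receptor genes for Rxra and Hnf4a. The log2 fold change was -0.95 (SE 0.23, adjusted p = 0.0183). With FPC-LIPA 31, 33 and 34 alone it was -0.63 (SE 0.17, adjusted p = 0.0898), and among libraries whose label ends in S and a number from 55 to 68, that is without FPC-LIPA 37, FPC-GFP 20 and, for the diet, CON-GFP 1 and 2, it was -0.79 (SE 0.22, adjusted p = 0.0745). Leaving out any single library kept the call. The paralogs Rxrb (33.0 ± 2.75 and 27.7 ± 4.28 CPM, -0.20, SE 0.14) and Rxrg (7.67 ± 1.79 and 6.79 ± 1.87 CPM, -0.12, SE 0.22) did not pass the test.

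Hnf4a (chr2:163506808-163572910, plus strand) had 409, 417, 444, 484, 516 and 687 CPM in FPC-GFP livers. In FPC-LIPA livers it had 282, 377 and 409 CPM for mice 31, 33 and 34 and 105, 98.0 and 196 CPM for mice 36, 37 and 39. The groups barely separated, with FPC-LIPA 34 at 408.75 CPM and FPC-GFP 19 at 408.83 CPM. The log2 fold change was -0.98 (SE 0.32, adjusted p = 0.0425). This call was lost in 14 of 23 alternatives, among them each omission of 1 FPC-GFP library or of FPC-LIPA 31, 36, 37 or 39 (adjusted p from 0.0504 to 0.0920), and with FPC-LIPA 31, 33 and 34 alone the log2 fold change was -0.46 (SE 0.19, adjusted p = 0.225).

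Levels of both genes were set beside the composition of the libraries. The 3 FPC-LIPA livers with the highest ribosomal protein share had the 3 lowest values of Rxra and of Hnf4a among all 18. Among these, FPC-LIPA 39 had the highest share (8.15%) but also the highest Rxra (180 CPM) and Hnf4a (196 CPM). In CON-GFP, mice 2 and 6 had the highest shares of that group (2.38 and 2.54%). Their Rxra (268 and 237 CPM) and Hnf4a (395 and 372 CPM) were its lowest. In FPC-GFP, mice 16 and 19 had the highest shares (1.80 and 1.70%). Their Rxra (316 and 281 CPM) and Hnf4a (417 and 409 CPM) were its lowest. FPC-GFP 11, at 1.69%, had the highest Rxra (444 CPM) and Hnf4a (687 CPM) of that group. Relative to the CON-GFP mean, the median log2 difference of the 33 receptor genes with a mean of 1 CPM or more was -0.67 in FPC-LIPA 36, -0.69 in 37 and -0.36 in 39, against -0.19, -0.04 and -0.26 in 31, 33 and 34. The slope of a gene's log2 deviation on GC content also differed between libraries. It was -0.61, -0.91 and -0.26 per 10% GC in FPC-LIPA 36, 37 and 39, and -0.05, 0.47 and 0.07 in 31, 33 and 34. For CON-GFP it was -0.50 and -0.16 in mice 2 and 6 and 0.08 to 0.25 in the others, and for FPC-GFP 0.05 to 0.37. Rxra has 57.9% GC and Hnf4a 54.3%, where the median gene tested has 49.8%. Across the 36 receptor genes, which share their libraries and base composition, the log2 fold change had a Pearson correlation of -0.28 and a Spearman correlation of -0.41 with GC content (-0.36 and -0.40 across 14604 genes). With log2 exonic length the Pearson correlation was -0.01 across the 36 receptor genes and -0.32 across the 14604 genes. After each library's GC trend was removed, the log2 fold change was -0.66 for Rxra (adjusted p = 0.0175) and -0.84 for Hnf4a (adjusted p = 0.0324). The part of library composition or preparation in these changes was not tested.

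**Figure D4:**
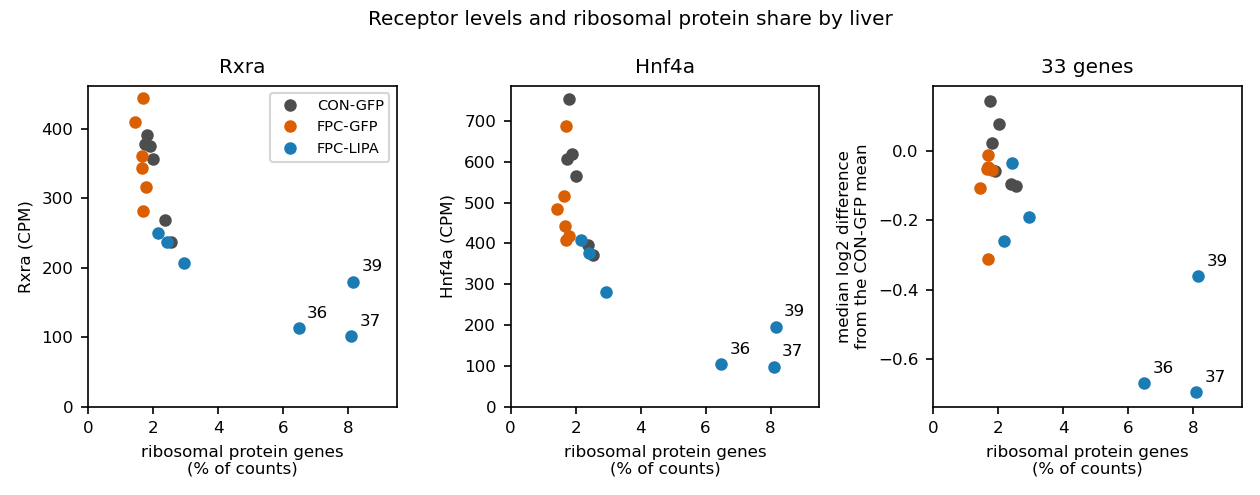
Each point is a liver, with the share of counts on ribosomal protein genes on the horizontal axis and, on the vertical axes, the CPM of Rxra, the CPM of Hnf4a and the median log2 difference of 33 receptor genes from the CON-GFP mean. FPC-LIPA 36, 37 and 39, labelled, lie at 6.48 to 8.15% and hold the lowest values of both genes.

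The metabolite sensors did not pass the test in this comparison. Nr1i2 lay at 90.8 ± 15.9 CPM in FPC-GFP and 87.7 ± 27.9 CPM in FPC-LIPA livers (log2 fold change 0.0060, SE 0.21) and Nr1i3 at 302 ± 65.4 and 305 ± 167 CPM (0.07, SE 0.32), with FPC-LIPA 33 and 39 above 500 CPM (505 and 516) and mouse 37 at 115 CPM. Tomm40l, which shares exonic sequence with Nr1i3, was at 16.5 ± 2.37 CPM in FPC-GFP and 33.9 ± 14.5 CPM in FPC-LIPA livers, with overlapping ranges (log2 fold change 1.10, adjusted p = 0.0175). Nr1h4 was at 139 ± 14.4 and 109 ± 18.0 CPM (-0.29, SE 0.16, adjusted p = 0.180), Nr1h3 at 125 ± 17.8 and 143 ± 49.4 CPM (0.25, SE 0.22), Nr1h2 at 39.9 ± 5.49 and 26.4 ± 14.3 CPM (-0.56, SE 0.31) and Ppara at 84.6 ± 11.7 and 92.9 ± 28.4 CPM (0.20, SE 0.21). Pparg was at 29.7 ± 8.11 and 20.4 ± 8.01 CPM (-0.49, SE 0.27, adjusted p = 0.180). FPC-LIPA 39 had the highest Nr1h3 (232 CPM) and Ppara (142 CPM) of the 18 livers.

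None of the 7 receptor genes past the test for the diet passed it for LIPA. Rarg had 6.57, 11.6 and 6.44 CPM in FPC-LIPA 31, 33 and 34 and 2.84, 2.23 and 3.80 CPM in 36, 37 and 39, so the highest and the lowest of all 18 values were both in this group (log2 fold change against FPC-GFP -0.55, SE 0.31). Nr3c1 was at 54.0 ± 10.9 and 70.7 ± 22.5 CPM (0.46, SE 0.25, adjusted p = 0.173), with FPC-LIPA 33 lowest at 33.1 CPM and 37 highest at 96.3 CPM. Nr1d1 was at 45.0 ± 32.6 and 26.4 ± 19.7 CPM (-0.73, SE 0.54). Without FPC-LIPA 33 the count of receptor genes past the test was 7, with 1 higher (Nr3c1) and 6 lower (Nr1h2, Ppard, Rara, Rarg, Rxra and Hnf4a), while it was 1 (Rxra) without any 1 FPC-GFP library or FPC-LIPA 31, 36, 37 or 39. The count over all genes moved as well. It was 5582 of 14696 without FPC-LIPA 33, against 3102 of 14620 with all libraries of the comparison. In the omissions that left Rxra alone it lay between 1092 and 3132. Of the rest, Nr4a1, an immediate early receptor gene, had an unadjusted p under 0.05 (7.25 ± 4.49 and 16.5 ± 14.0 CPM, 1.23, SE 0.57, adjusted p = 0.121), with FPC-LIPA 33, 34 and 39 at 34.5, 30.5 and 20.7 CPM and 31, 36 and 37 at 4.34, 4.90 and 3.80 CPM. Log2 fold changes of the remaining receptor genes ran from -0.60 (Rara) to 0.77 (Nr2f1).

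**Figure D5:**
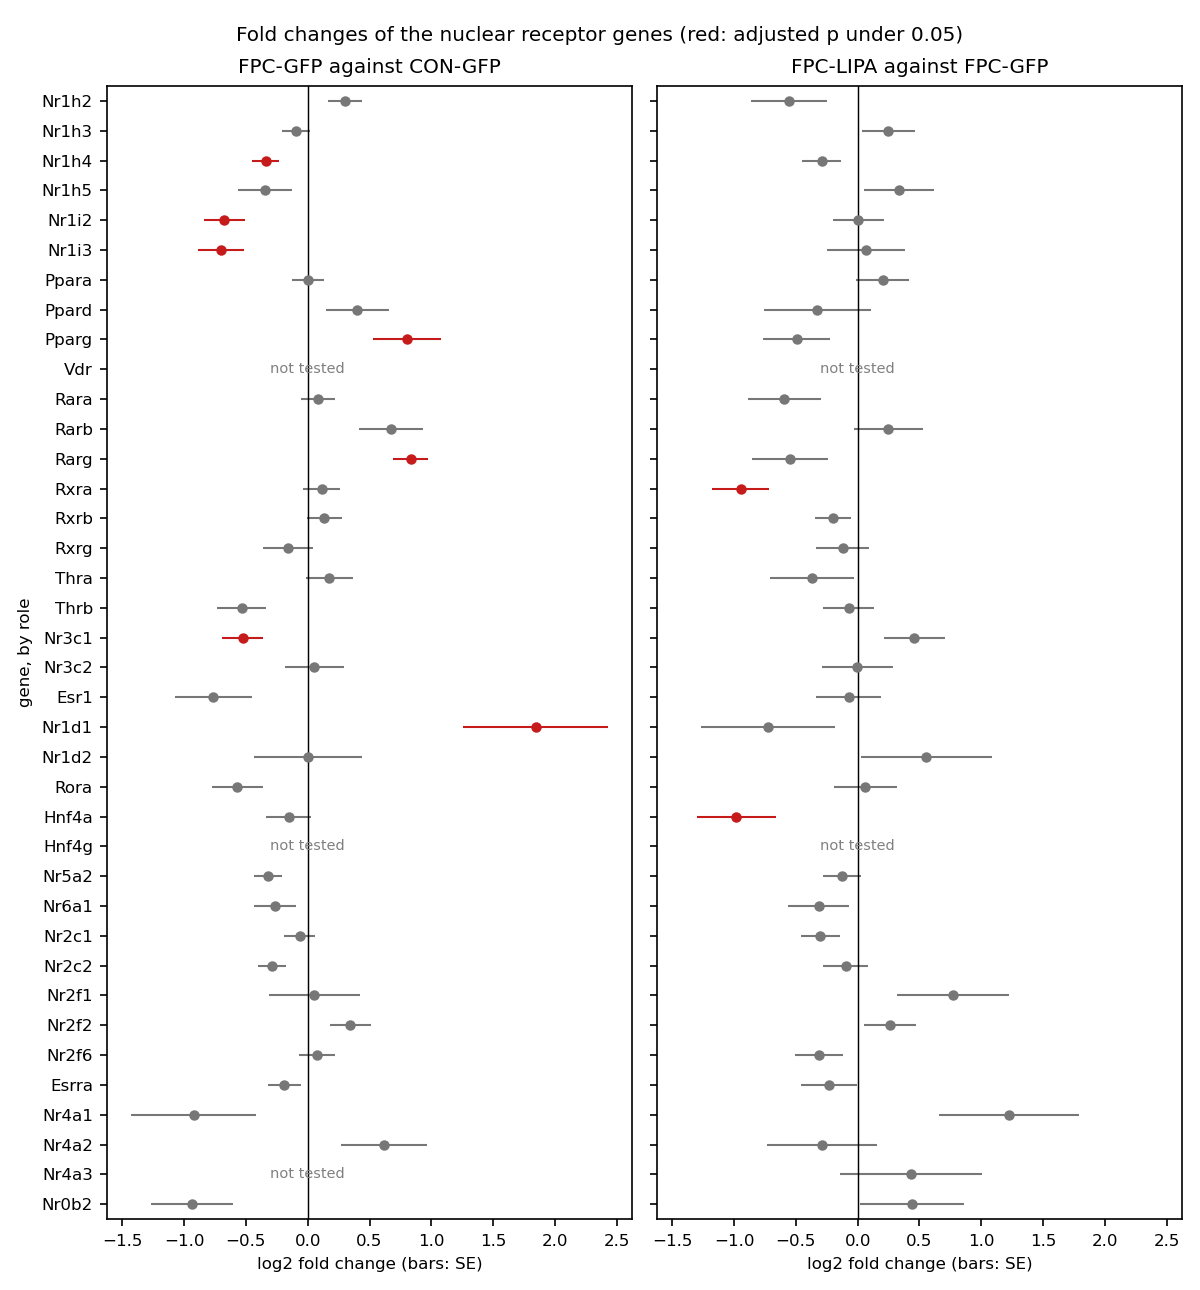
Points are log2 fold changes with their SE for each gene (rows, by role) in both comparisons, which share the FPC-GFP livers, and red marks an adjusted p under 0.05. Red points lie on both sides of 0 for the diet and only below 0 for LIPA, where they are Rxra and Hnf4a.

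HNF4A targets had 1 lower and 0 higher of 10, with 6 of 10 log2 fold changes above 0 and a median of 0.07 (0.04 over all genes tested). List counts in this comparison are to be read against the 14.4% of all genes called higher and the 6.87% called lower. Among them, coactivators and corepressors, which nuclear receptors recruit to genes, had 5 lower and 1 higher of 20 (median log2 fold change -0.37, against 0.04 over all genes tested). The part of exonic length and GC content in this list was not tested. The corepressor gene Ncor1 (79.5 ± 9.5 to 50.1 ± 14.4 CPM, -0.62, SE 0.19) and Ncoa4 (57.6 ± 6.16 to 36.8 ± 11.4 CPM, -0.60, SE 0.19) led those lower, and Ncoa7 was higher (1.59, SE 0.36). Retinoid genes had 3 higher and 0 lower of 10, led by Rarres2 (432 ± 120 to 1312 ± 787 CPM, 1.70, SE 0.37) and by Lrat, which esterifies retinol in stellate cells (20.6 ± 3.99 to 36.9 ± 16.3 CPM, 0.91, SE 0.29). Xenobiotic receptor targets had 2 higher, the P450 genes Cyp3a11 (1.41, SE 0.36) and Cyp2c55 (1.27, SE 0.40), and 1 lower, Cyp2c29 (-1.0, SE 0.34), of 17. PPAR targets had 2 higher, Cd36 (fatty acid uptake, 1.20, SE 0.39) and Fabp4 (1.08, SE 0.32), and 1 lower, the droplet gene Cidec (-0.89, SE 0.29), of 23. Oxysterol receptor targets had Mylip higher (0.62, SE 0.21) and Lpcat3 lower (-1.02, SE 0.25) of 12, and bile acid receptor targets had Slc51b higher (1.69, SE 0.51) of 11. Core clock genes had 2 lower of 15, Hlf (-0.69, SE 0.19) and Cry2 (-0.80, SE 0.27).

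Glucocorticoid targets had Sgk1 higher (0.86, SE 0.27) and Mt2 lower (-3.27, SE 1.11, with an SD of 123 CPM around a mean of 56 CPM in FPC-GFP) of 13. Vitamin D genes had Cyp2r1 higher (1.54, SE 0.47) of 3, immediate early genes had Klf6 higher (1.37, SE 0.32) of 14, and thyroid hormone targets (6) and further nuclear receptor genes (4) had 0 past the test and 0 at an unadjusted p under 0.05. Cell markers moved as well: monocyte and macrophage markers were higher for 7 of 10 (155 to 423 CPM summed in FPC-GFP and 516 to 749 CPM in FPC-LIPA livers), led by Lyz2 and Cd9. Kupffer cell markers were higher for 4 and lower for 1 of 8 (447 to 635 and 452 to 941 CPM), led by Cd5l and Clec4f, with C6 lower. Stellate cell markers were higher for 3 of 10 (243 to 320 and 329 to 1012 CPM), led by Dcn and Col3a1, while 6 of the 10 had log2 fold changes below 0 and the median of the list was -0.12. Lymphocyte markers were higher for 3 of 7 (7.22 to 19.6 and 22.8 to 78.9 CPM), led by Ptprc and Ms4a1, and both neutrophil markers tested, S100a8 and S100a9, were higher (0.903 to 2.68 and 3.53 to 16.7 CPM). Endothelial (8), cholangiocyte (5) and adipocyte markers (1) had 0 past the test, with 1 endothelial marker at an unadjusted p under 0.05, and hepatocyte markers had 1 higher of 9, Hpx (64415 to 90990 and 55278 to 81999 CPM summed). Their part in the lower Rxra and Hnf4a levels was not tested.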

How the data were processed

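The authors trimmed reads with Trimmomatic, mapped them to GRCm38 (Hisat2, 2.1.0 in the processing notes) and summed them by gene in Feature Counts, and the deposited table holds these raw counts for 55487 genes in 23 columns, of which 5 belong to other vectors and were not used here. The study names a stranded and an unstranded kit, and which library had which, and the strand setting, are not given in the sources used here. Totals of 16632146 to 37739301 counts make counting error small for all but the lowest genes.

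Libraries were grouped by their labels, 6 per group. In each comparison 12 libraries were filtered with filterByExpr, scaled by TMM and tested with the quasi-likelihood test of edgeR 4.0.16 in R 4.3.3, with Benjamini-Hochberg adjustment over all genes tested, and called at an adjusted p under 0.05. The 2-fold minimum of the study was counted beside it. CPM were scaled by TMM over the 18 libraries, and each SE was obtained from the log2 fold change and the root of its F value. Exonic length and GC content came from GENCODE M21. The steps were tested on simulated data.

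The 38 genes, the gene lists and the markers were chosen with earlier results of these data known. Named were each receptor gene past the test, the 5 highest per kb, the paralogs and partners of those past the test, and of each list the 2 genes past the test with the highest CPM in each direction. Fold changes of other receptor genes, Dbp and Arntl were added after their values were seen. Results of 2 list genes are not reported here. Alternatives were DESeq2 1.42.0 size factors and Wald test, upper-quartile factors, library size alone, removal of length trends, the libraries with sheet numbers 55 to 68 (the number after S in the label), FPC-LIPA 31, 33 and 34 alone, 1 fit of all 18 libraries, omission of single libraries, a minimum of 1 CPM in 6 libraries and no filter. Removal of GC trends was chosen after seeing the data.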

Additional observations from a re-analysis of the deposited data

Results flagged for a closer look

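In 8 of 110 groups of 6 values, 1 liver lay far from the other 5 by Dixon's criterion, which chance alone meets in about 1 of 20 groups. Ppard stood high in CON-GFP 1 (12.9 CPM, with the next value at 7.02) and in FPC-LIPA 33 (19.3 CPM, next 7.82). The clock receptor gene Nr1d1 stood high in CON-GFP 7 (36.5 CPM, next 12.3) and in FPC-LIPA 31 (63.6 CPM, next 28.5). FPC-LIPA 37, the library with the lowest total, stood high for Thrb (40.1 CPM, next 24.7), Rora (85.6 CPM, next 43.3) and Nr4a3 (0.790 CPM, next 0.435). Nr2f6 stood high in FPC-GFP 11 (79.2 CPM, next 59.7).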

How the results depend on the processing

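No change of direction occurred among the 9 genes past the test in any of the alternatives. The count of receptor genes past the test for the diet was 7, and was 13 with the DESeq2 Wald test, 4 in the libraries with sample sheet numbers from 55 to 68, 1 with all 18 libraries in 1 fit and 1 with the 2-fold minimum, and lay between 4 and 10 when each library was left out in turn. Over all genes the diet count was 3410 of 14307, and 4043 with the DESeq2 Wald test. It was 1995 of 14640 with sheet numbers from 55 to 68 and 1352 of 14963 in the fit of all 18. With the 2-fold minimum it was 1030, and with single libraries left out it lay between 2466 and 3569. For LIPA the count was 2, and was 1 with library size alone, 1 with upper-quartile factors, 0 with sample sheet numbers from 55 to 68, 0 with the 2-fold minimum and 0 with FPC-LIPA 31, 33 and 34 alone, and lay between 1 and 7 when each library was left out. Over all genes the LIPA count was 3102 of 14620, 1438 with library size alone and 2857 with upper-quartile factors. It was only 104 of 14736 with sheet numbers from 55 to 68 and 186 of 15246 with FPC-LIPA 31, 33 and 34 alone. With the 2-fold minimum it was 1671, and with single libraries left out it lay between 1092 and 5582. The settings with fewer libraries also have fewer samples, and the cause of the other changes was not tested. Calls were lost in 1 of 22 alternatives each for Nr1i2 (sheet numbers from 55 to 68), Nr1i3 and Rarg (both with all 18 libraries in 1 fit), in 9 for Nr3c1, 10 for Nr1d1, 11 for Nr1h4 and 12 for Pparg, and in 2 of 23 for Rxra and 14 for Hnf4a. The 2-fold minimum is left out of the 22 and 23, and under it only Nr1d1 of the 9 genes kept its call. No paired analysis was possible because the groups share no mouse numbers. Vdr (0 to 3 counts) and Hnf4g (0 to 5 counts) stayed near or under the floor of 3 counts in all libraries, the deepest included. Nr4a3 did so in several CON-GFP and FPC-GFP libraries, while it had 7 to 16 counts in FPC-LIPA libraries and was tested in the LIPA comparison.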
